A study of Mus musculus with 34 samples.

Results

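Transcripts of 10 genes of bone morphogenetic protein (BMP) signalling were followed across mouse kidney development and kidney culture. They comprised 5 ligands (Bmp2, Bmp4, Bmp5, Bmp6 and Bmp7), 2 secreted antagonists (Grem1, encoding gremlin, and Nog, encoding noggin) and 3 Id genes (Id1, Id2 and Id3). The genes were taken by name, and all 10 were present among the 23331 genes of the deposited table. Bulk RNA was measured in 34 libraries that formed 17 groups of 2 samples. The mouse kidney progenitor assembloids (mKPA), which were built from expandable kidney progenitors and grown in the stage-based medium v2, were sampled at D3, D7 and D13 and at D19, the last as 2 groups labelled D19_r1 and D19_r2 whose suffixes the labels do not explain. Explants were E12.5 kidneys kept in culture, sampled at D19 in v2, at D3, D7, D13 and D19 in v1, at D17 in v0 and at D7 in medium with 10% FBS (fetal bovine serum). Uncultured kidneys were taken at E12.5, E15.5, P0, P9 and P45. Every mKPA and explant carried Hoxb7-venus, a fluorescent reporter driven by a promoter of the ureteric lineage, and every uncultured kidney was wild type, so culture and genotype cannot be told apart. The labels do not say if both samples of each group had their own animals or cultures, so the p-values measure the spread between these samples, which may be technical.

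BMP ligands are secreted dimers that bring type I and type II receptors together, and the receptors phosphorylate Smad1, Smad5 and Smad9, which enter the nucleus with Smad4. Id genes are among the most direct targets of these Smads, and the Id proteins hold basic helix-loop-helix factors away from DNA. Gremlin and noggin bind ligands outside the cell and keep them from their receptors. In the developing kidney Bmp7 keeps nephron progenitors alive, Bmp4 in the mesenchyme around the nephric duct restrains budding, and Grem1 lifts that restraint so that the ureteric bud can grow out and branch.

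Values are the deposited TMM-normalized signal, which is not divided by gene length, so that levels are compared between samples of a gene and not between genes. The column totals ran from 879095 to 1503681, with the P45 kidneys at the top. The lowest value of a library, shared by 1984 to 4058 genes, lay between 0.0350 and 0.119. Both ends came from the D19 v2 explants, 0.0350 in the first library and 0.119 in the second. All 10 genes passed the filter on low values, a signal of 0.962 or more in at least 2 libraries, as did 19264 of the 23331 genes. The P45 kidneys also had the highest mitochondrial share, up to 21.8% of the column total against 1.96% in the lowest library. Correlations between the 2 samples of a group were 0.9811 to 0.9956 over the genes that passed the filter. Nephron progenitor, ureteric and proximal tubule markers, 8 genes each, exceeded the lowest value in every group, except Six2 and Eya1 at P45, Aqp2, Slc34a1, Slc5a2 and Slc22a6 at E12.5, and Slc5a2 in D19 v2 explants. A gene was called higher or lower when its adjusted p (limma, Benjamini-Hochberg over all 19264 genes) was under 0.05 and its change was at least 1 on the log2(signal + 0.962) scale, on which all changes below are given with their standard error. This scale understates the change of low genes.

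The table placed Bmp2 (ENSMUSG00000027358.7) at chr2:133394079-133404805 on the plus strand, Bmp4 (ENSMUSG00000021835.16) at chr14:46620977-46628126 on the minus strand and Bmp5 (ENSMUSG00000032179.8) at chr9:75682646-75807592 on the plus strand, in coordinates that fit mm39. Bmp6 (ENSMUSG00000039004.7) lay at chr13:38529083-38684278 on the plus strand and Bmp7 (ENSMUSG00000008999.8) at chr2:172709805-172782114 on the minus strand. Of the antagonists, Grem1 (ENSMUSG00000074934.4) lay at chr2:113576509-113588991 and Nog (ENSMUSG00000048616.5) at chr11:89191464-89193158, both on the minus strand. Id1 (ENSMUSG00000042745.10) lay at chr2:152578171-152579330 and Id3 (ENSMUSG00000007872.4) at chr4:135870808-135873066, both on the plus strand, and Id2 (ENSMUSG00000020644.10) at chr12:25143798-25147139 on the minus strand. All 10 were annotated as protein-coding, and each span is the whole gene.

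Bmp5 and Grem1 were called in more comparisons than the other genes, and the 250 bases before their transcription starts are printed for that reason. Both come from the RefSeq promoter table on GRCm38.p6, which held 6 of the 10 genes (Bmp4, Bmp5, Bmp6, Grem1, Id2 and Id3). They read 5′ to 3′ on the gene's own strand and end at the base before the start, Grem1 at chr2:113758649-113758898 on the minus strand and Bmp5 at chr9:75775115-75775364 on the plus strand. Capitals mark GGCGCC, the GC-rich core bound by Smad1 and Smad5.
Grem1: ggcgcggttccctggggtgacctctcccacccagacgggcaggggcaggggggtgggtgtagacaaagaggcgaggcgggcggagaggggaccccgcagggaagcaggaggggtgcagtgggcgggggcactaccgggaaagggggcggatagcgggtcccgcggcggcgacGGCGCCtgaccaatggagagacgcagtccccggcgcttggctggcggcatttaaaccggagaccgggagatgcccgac
Bmp5: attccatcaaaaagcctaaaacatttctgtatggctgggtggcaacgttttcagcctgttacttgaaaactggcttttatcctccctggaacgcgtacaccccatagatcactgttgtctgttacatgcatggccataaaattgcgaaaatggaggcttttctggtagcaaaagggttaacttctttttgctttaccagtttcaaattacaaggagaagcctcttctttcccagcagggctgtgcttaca
The Grem1 window was 72.0% G and C and held GGCGCC once, with its first base at position -78, counted back from -1 at the base before the start. The Bmp5 window was 42.8% G and C and held no GGCGCC. The Smad motif GTCTN, in which N is any base, occurred 4 times in the Grem1 window and 1 time in the Bmp5 window, and the E-box CACGTG, bound by basic helix-loop-helix factors, occurred in neither. Both strands were searched, and GGCGCC and CACGTG read the same on each. Of 32851 promoter windows of the same length, 3149 (9.59%) held GGCGCC, 82.7% held GTCTN and 6.02% held CACGTG. Of the other matched windows, Id2 held GGCGCC, and Bmp4 and Bmp6 held CACGTG. A match describes these letters and is not a measured binding site.

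The plot of all 10 genes by group shows how differently they varied.

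**Figure D1:**
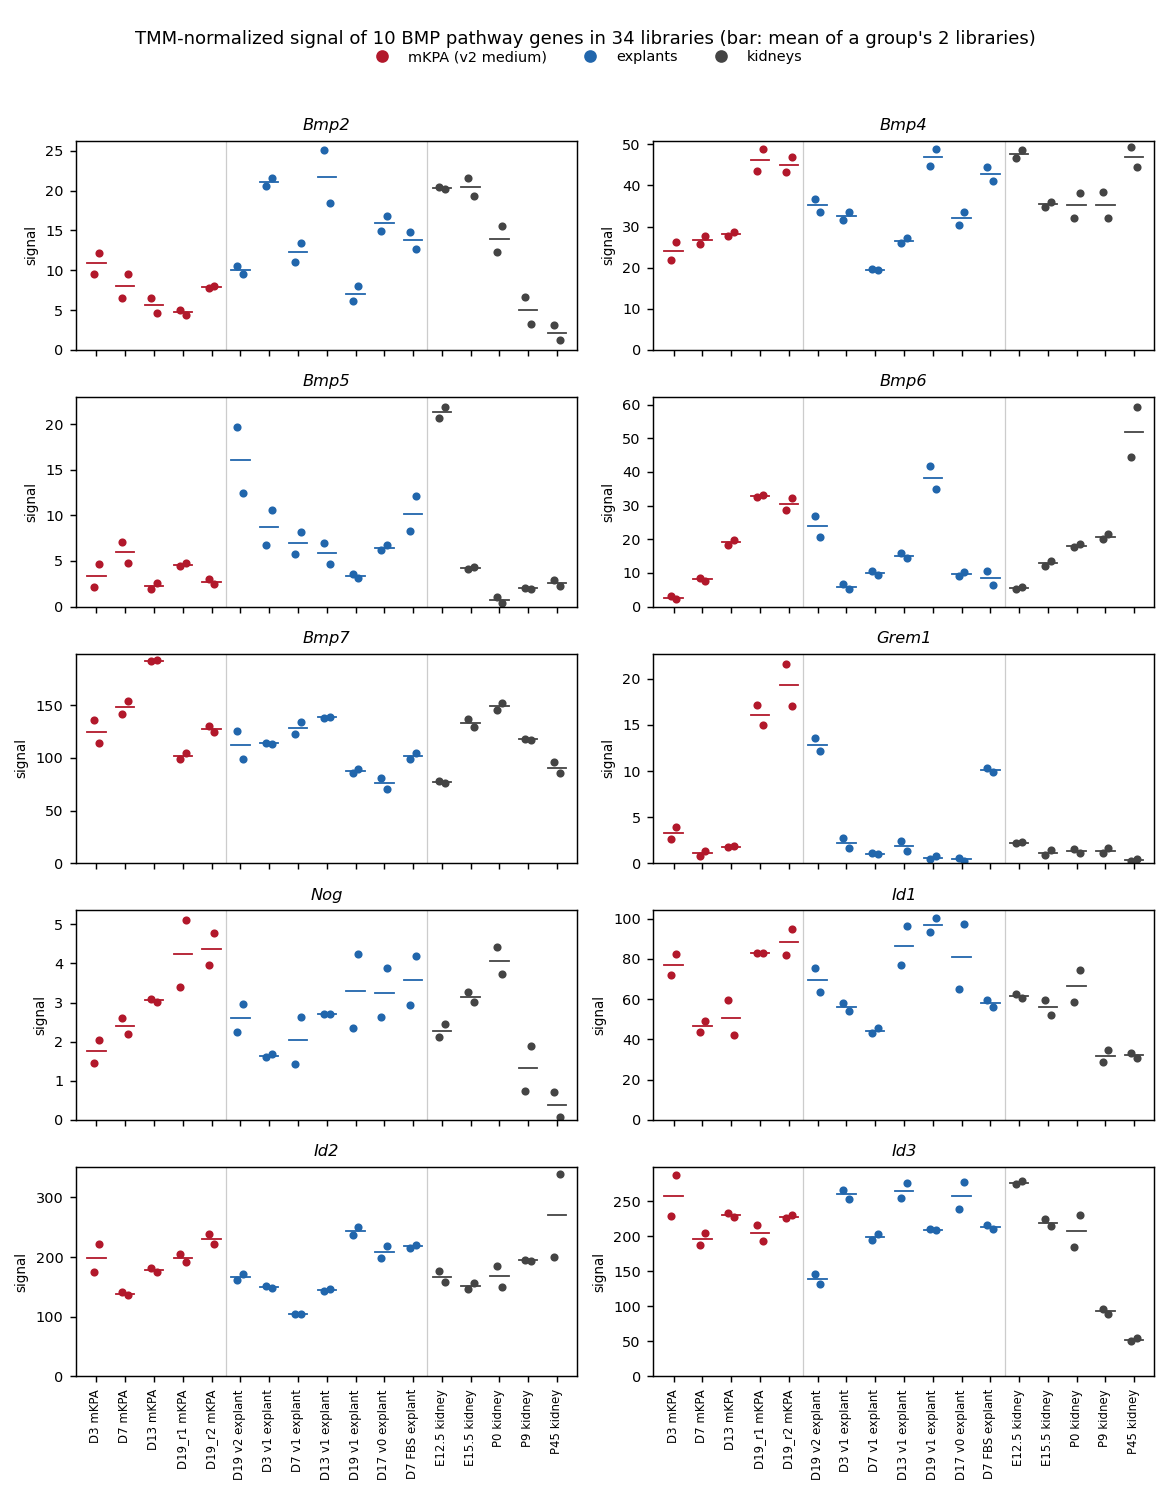
TMM-normalized signal (y axes, linear, each from 0) of the 10 genes in 17 groups (x axes), with 1 point for each of the 2 libraries and a bar at their mean. Mean Grem1 signal varied 55.4-fold between its highest and lowest group, Bmp5 28.6-fold and Bmp6 19.6-fold, whereas Bmp4 varied 2.44-fold and Bmp7 2.54-fold.

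Among the ligands, Bmp7, the survival factor of nephron progenitors, stayed within a 2.54-fold range of group means. Its mKPA libraries had 136 and 114 at D3, 142 and 154 at D7, 192 and 193 at D13, 98.8 and 104 at D19_r1 and 131 and 125 at D19_r2. The v1 explants had 114 and 113 at D3, 123 and 134 at D7, 138 and 139 at D13 and 86.1 and 89.9 at D19, and the other explants 125 and 98.5 in D19 v2 explants, 81.3 and 70.2 in D17 v0 explants and 99.2 and 104 in D7 FBS explants. In kidneys the signal was 77.7 and 76.2 at E12.5, 137 and 129.7 at E15.5, 146 and 152 at P0, 118 and 117 at P9 and 95.7 and 85.9 at P45. The D13 mKPA stood above every other library, and the E12.5 kidneys and D17 v0 explants were the lowest groups. In 6 of the 16 pairs of groups next to each other in the order of means, the libraries did not overlap. How often this holds over all genes was not counted, here or for the genes below.

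Bmp4, the ligand of the periductal mesenchyme, had group means within a 2.44-fold range. The signal in mKPA was 21.9 and 26.2 at D3, 25.7 and 27.8 at D7, 27.7 and 28.6 at D13, 43.5 and 49.0 at D19_r1 and 43.2 and 47.0 at D19_r2. It was 31.5 and 33.7 at D3, 19.7 and 19.4 at D7, 25.9 and 27.2 at D13 and 44.7 and 48.9 at D19 in v1 explants, and 36.8 and 33.6 in D19 v2 explants, 30.3 and 33.6 in D17 v0 explants and 44.5 and 41.1 in D7 FBS explants. The kidneys had 46.8 and 48.7 at E12.5, 34.8 and 36.0 at E15.5, 32.2 and 38.3 at P0, 38.3 and 32.2 at P9 and 49.4 and 44.5 at P45. Both mKPA and v1 explants were higher at D19 than at any earlier day, without overlap, and the D7 v1 explants were the lowest of all groups. At the top, the E12.5 kidneys, P45 kidneys, D19 v1 explants and both D19 mKPA groups overlapped one another.

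Bmp2, which restrains ureteric branching when added to kidney cultures, was lower in mKPA than in the embryonic kidneys. It had 9.54 and 12.2 at D3, 6.53 and 9.52 at D7, 6.58 and 4.61 at D13, 5.07 and 4.41 at D19_r1 and 7.72 and 7.97 at D19_r2 in mKPA. The explants in v1 had 20.5 and 21.5 at D3, 11.0 and 13.5 at D7, 25.1 and 18.4 at D13 and 6.11 and 8.02 at D19, and the rest 10.6 and 9.51 in D19 v2 explants, 15.0 and 16.8 in D17 v0 explants and 14.9 and 12.6 in D7 FBS explants. Kidneys had 20.5 and 20.2 at E12.5, 21.6 and 19.3 at E15.5, 12.3 and 15.52 at P0, 6.66 and 3.27 at P9 and 3.15 and 1.19 at P45. The levels in mKPA at every day lay below those of the E12.5 and E15.5 kidneys and of the D3 and D13 v1 explants. Spread was wide at P45, where 1 library had 1.19 and the other 3.15, and 2 of the 16 pairs of neighbouring groups did not overlap.

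Bmp5, a close relative of Bmp7 that is expressed in the mesenchyme around the ureter, had its highest signal in the E12.5 kidneys and the D19 v2 explants. The mKPA libraries held 2.15 and 4.66 at D3, 7.11 and 4.76 at D7, 1.94 and 2.54 at D13, 4.43 and 4.78 at D19_r1 and 3.02 and 2.47 at D19_r2. In v1 explants the values were 6.78 and 10.6 at D3, 5.74 and 8.14 at D7, 7.02 and 4.66 at D13 and 3.54 and 3.10 at D19, and elsewhere in culture 19.7 and 12.48 in D19 v2 explants, 6.21 and 6.75 in D17 v0 explants and 8.30 and 12.1 in D7 FBS explants. In kidneys they were 20.7 and 21.9 at E12.5, 4.13 and 4.36 at E15.5, 1.07 and 0.416 at P0, 2.04 and 1.93 at P9 and 2.94 and 2.30 at P45. The D19 v2 explants, whose libraries differed from each other, stood above all other cultures and just below the E12.5 kidneys, and P0 lay below every other group, with no overlap in either place. From E12.5 to P0 each kidney stage was lower than the one before, without overlap.

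Bmp6, best known from iron sensing in the liver, was higher at later ages and, in mKPA and v1 explants, at later days of culture. In mKPA it had 3.05 and 2.26 at D3, 8.61 and 7.72 at D7, 18.3 and 19.9 at D13, 32.7 and 33.0 at D19_r1 and 28.8 and 32.1 at D19_r2. The v1 explants had 6.58 and 5.16 at D3, 10.6 and 9.41 at D7, 15.8 and 14.3 at D13 and 41.6 and 34.9 at D19, and the other explants had 26.9 and 20.8 in D19 v2 explants, 8.96 and 10.2 in D17 v0 explants and 10.4 and 6.53 in D7 FBS explants. Kidneys had 5.24 and 5.90 at E12.5, 12.2 and 13.5 at E15.5, 17.7 and 18.6 at P0, 19.9 and 21.6 at P9 and 44.5 and 59.4 at P45. Within mKPA, within v1 explants and within kidneys, each day or stage lay above the previous one without overlap, apart from D19_r1 and D19_r2, which share a day. The D17 v0 explants, although later, lay below the D13 mKPA and the D13 v1 explants. Among the 10 genes, Bmp6 had the most separated groups, with 10 of 16 neighbouring pairs that did not overlap. The share over all genes was not counted.

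Of the antagonists, Grem1 was low in most groups and high in 4. Its signal in mKPA was 2.598 and 3.93 at D3, 0.795 and 1.35 at D7, 1.71 and 1.83 at D13, 17.1 and 15.0 at D19_r1 and 21.6 and 17.1 at D19_r2. In v1 explants it was 2.69 and 1.62 at D3, 1.09 and 1.00 at D7, 2.38 and 1.36 at D13 and 0.434 and 0.776 at D19, and outside v1 it was 13.5 and 12.1 in D19 v2 explants, 0.537 and 0.283 in D17 v0 explants and 10.4 and 9.93 in D7 FBS explants. The kidneys had 2.16 and 2.28 at E12.5, 0.854 and 1.42 at E15.5, 1.54 and 1.15 at P0, 1.09 and 1.61 at P9 and 0.210 and 0.489 at P45. Both D19 mKPA groups, the D19 v2 explants and the D7 FBS explants had 9.93 or more in every library, and the next highest library, of D3 mKPA, had 3.93. The 2 D19 mKPA groups overlapped each other, while the D19 v2 explants lay below both and above the D7 FBS explants. The lowest library, at P45, was at 3 times its own lowest value.

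Nog, the antagonist first known from the embryonic organizer, had no library above 5.11. It had 1.45 and 2.05 at D3, 2.604 and 2.21 at D7, 3.10 and 3.01 at D13, 3.40 and 5.11 at D19_r1 and 3.97 and 4.77 at D19_r2 in mKPA. The signal was 1.60 and 1.67 at D3, 1.42 and 2.64 at D7, 2.71 and 2.71 at D13 and 2.35 and 4.24 at D19 in v1 explants, and 2.24 and 2.97 in D19 v2 explants, 2.63 and 3.88 in D17 v0 explants and 2.94 and 4.19 in D7 FBS explants. The kidneys showed 2.11 and 2.45 at E12.5, 3.27 and 3.02 at E15.5, 4.42 and 3.72 at P0, 0.748 and 1.88 at P9 and 0.700 and 0.0698 at P45. Its second P45 library stood at the lowest value of that library, 0.0698, and the P45 and P9 kidneys had the lowest means. The highest group means were those of D19 mKPA and P0 kidneys, whose libraries overlapped.

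Turning to the Id genes, Id1 had 71.8 and 82.6 at D3, 43.6 and 49.2 at D7, 59.4 and 42.0 at D13, 83.0 and 83.1 at D19_r1 and 81.9 and 94.9 at D19_r2 in mKPA. Values in v1 explants were 58.1 and 54.1 at D3, 42.9 and 45.4 at D7, 77.1 and 96.1 at D13 and 93.3 and 100.5 at D19, and in the other explants 75.5 and 63.5 in D19 v2 explants, 65.1 and 97.2 in D17 v0 explants and 59.8 and 55.9 in D7 FBS explants. The kidney stages had 62.3 and 60.6 at E12.5, 59.6 and 52.2 at E15.5, 58.7 and 74.3 at P0, 28.8 and 34.5 at P9 and 33.3 and 30.6 at P45. P9 and P45 kidneys lay below all other groups, and the D19 v1 explants, with 93.3 and 100.5, had the highest mean. In mKPA and in v1 explants, D7 had a lower mean than D3, and D19 was higher than D7 without overlap.

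Id2, which like its relatives lacks a DNA-binding domain of its own, had its highest library at P45. The mKPA had 175 and 221 at D3, 141 and 137 at D7, 182 and 175 at D13, 204 and 192 at D19_r1 and 239 and 222 at D19_r2. The v1 explants had 152 and 149 at D3, 105 and 104 at D7, 143 and 146 at D13 and 237 and 251 at D19, and the remaining explants 161 and 172 in D19 v2 explants, 199 and 218 in D17 v0 explants and 216 and 220.1 in D7 FBS explants. The kidneys had 176 and 159 at E12.5, 147 and 156 at E15.5, 186 and 149.8 at P0, 195 and 194 at P9 and 201 and 339 at P45. The P45 libraries differed by more than the whole range of the 4 younger stages. The D7 v1 explants were the lowest group, with no overlap, and D19 was the highest day in v1.

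Id3, a further direct target of BMP Smads, was lowest in the P9 and P45 kidneys. In mKPA it stood at 229 and 287 at D3, 188 and 204 at D7, 233 and 227 at D13, 216 and 193 at D19_r1 and 226 and 229.8 at D19_r2. In v1 explants it stood at 267 and 253 at D3, 195 and 203 at D7, 254 and 276 at D13 and 209.6 and 208 at D19, and in the others at 146 and 132 in D19 v2 explants, 238 and 277 in D17 v0 explants and 217 and 211 in D7 FBS explants. Kidneys had 275 and 278 at E12.5, 224 and 214 at E15.5, 184 and 229.6 at P0, 96.9 and 89.1 at P9 and 50.6 and 54.5 at P45. P45 lay below P9, and P9 below every culture. Among cultures the D19 v2 explants were lowest, and none of these 3 groups overlapped with any other.

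Over the 17 group means, Bmp2 and Id3 had a Pearson r of 0.746 on the log2 scale, Bmp4 and Id2 of 0.719, Nog and Id1 of 0.718, and Bmp2 and Bmp6 of -0.665. For Bmp7 the coefficients with the other 9 genes ran from -0.559 (Bmp4) to 0.179 (Nog). These coefficients describe groups that share age, medium and source, and carry no p.

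In the 13 comparisons that follow, the 10 genes were called 29 times. Of all genes tested, 2.84% to 27.5% were called, depending on the comparison. Bmp5 was called in 11 of the 13, higher in 5 and lower in 6, and Grem1 in 6, higher in 5. Bmp6 was called in 4 and was higher in each, Bmp2 in 3 and lower in each. Bmp4, Nog, Id1, Id2 and Id3 were each called once, as lower, and Bmp7 in none, although its adjusted p was under 0.05 with a change below 1 in 9 comparisons. Several comparisons share libraries, and their values are not independent. With a pseudocount 5 times larger, which shrinks the change of low genes further, Bmp5 missed the fold threshold in 6 of its 11 comparisons. Its change was then 0.42 in P45 against P0 kidneys, -0.97 in D3 v1 explants against E12.5 kidneys, -0.72 in D19 against D3 v1 explants and in D3 mKPA against D3 v1 explants, 0.60 in D19 mKPA against P0 kidneys, and 0.77 for the difference of the D19 over D3 change. Nog (-0.77) and Id1 (-0.95) also missed it in P45 against P0 kidneys, and Bmp4 (-0.96) in D7 v1 against D7 FBS explants.

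**Figure D2:**
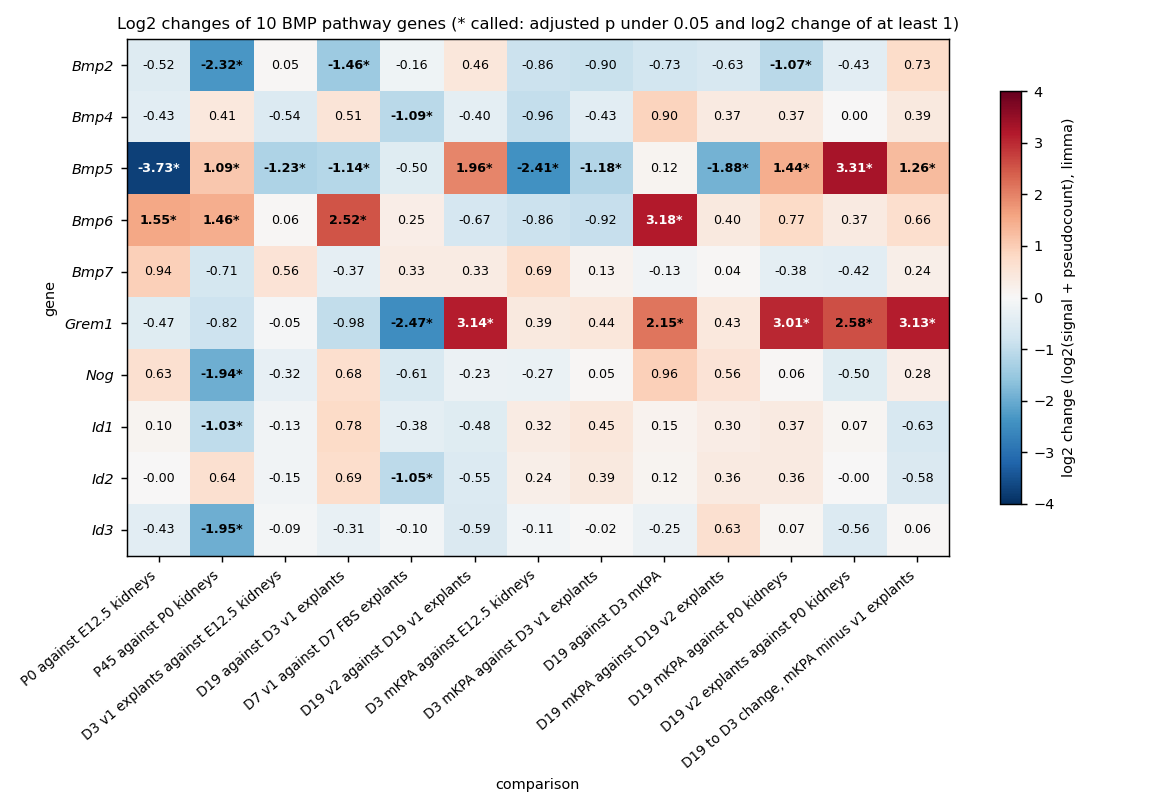
Log2 changes of the 10 genes (rows) in 13 comparisons (columns), as numbers on a colour scale from -4 (blue) to 4 (red), with an asterisk on each called gene. The row of Bmp5 holds 11 called changes in both directions and that of Bmp7 holds 0.

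In the heat map of changes, Id1 and Id3 carry an asterisk in P45 against P0 kidneys, and Id2 in D7 v1 against D7 FBS explants. Grem1 has its deepest red where groups in v2 at D19 stand first.

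The first comparison asked how the genes changed over prenatal development. At P0, against E12.5 kidneys, Bmp5 fell and Bmp6 rose, and 2 of the 10 genes were called where 19.5% of all genes tested were. Bmp5 averaged 0.744 ± 0.464 at P0 and 21.3 ± 0.859 at E12.5 (SD, n = 2 each), a change of -3.73 ± 0.28, adjusted p = 5.35e-12. The change was -2.24 with a pseudocount 5 times larger and -4.61 with a pseudocount 5 times smaller. For Bmp6 the means were 18.1 ± 0.643 at P0 and 5.57 ± 0.470 at E12.5, a change of 1.55 ± 0.18, adjusted p = 3.53e-08. Bmp7 had 149 at P0 and 77.0 at E12.5, with an adjusted p of 7.39e-09 but a change of 0.94 ± 0.10, just under the fold threshold. The Id genes had changes of 0.10 ± 0.16 (Id1), -0.00 ± 0.14 (Id2) and -0.43 ± 0.10 (Id3), none of them called. Of 49 other pathway genes tested, 5 rose and 9 fell, with a median change of -0.48 against 0.00 over all genes. Sostdc1, a BMP and Wnt antagonist of the tubules, had 226 and 167 at P0 and 2.53 and 1.89 at E12.5, a change of 5.95 ± 0.21. Fstl3, a follistatin-like binding protein, rose by 2.78 ± 0.23, whereas the ligand Gdf6 changed by -3.16 ± 0.26 and the secreted BMP binder Bmper by -2.52 ± 0.18. Summed signal of 8 proximal tubule markers was 2355 to 2592 at P0 and 17.9 to 18.4 at E12.5, and that of 8 stroma markers was 1628 to 1689 at P0 and 2953 to 2981 at E12.5. The part of cell makeup in these changes was not tested, and in bulk RNA fewer cells of a type and less RNA per cell cannot be told apart.

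After birth more of the genes were called. At P45, against P0, 6 of 10 were called where 27.5% of all genes were: Bmp5 and Bmp6 rose, and Bmp2, Nog, Id1 and Id3 fell. Id3 had 52.5 at P45 and 207 at P0, a change of -1.95 ± 0.10, adjusted p = 4.2e-15, and Id1 had 31.96 at P45 and 66.5 at P0, a change of -1.03 ± 0.16, adjusted p = 3.81e-06. Id2, whose P45 libraries stood far apart, had 0.64 ± 0.14 (adjusted p = 0.000332), under the fold threshold, and -0.00 with columns rescaled to equal totals. Among the ligands, Bmp2 averaged 2.17 at P45 and 13.9 at P0 (-2.32 ± 0.26, adjusted p = 1.03e-08). Bmp6 averaged 51.9 at P45 and 18.1 at P0 (1.46 ± 0.18, adjusted p = 7.25e-08), and Bmp5 2.62 at P45 and 0.744 at P0 (1.09 ± 0.28, adjusted p = 0.00128). The antagonist Nog changed by -1.94 ± 0.28, adjusted p = 8.76e-07. This standard error, shared by all groups, does not reflect the scatter of its P45 libraries, at 0.700 and 0.0698. Of the 49 other pathway genes 2 rose and 16 fell, with a median of -0.61 against -0.01 over all genes. Hey1, a target of BMP and Notch signals, changed by -3.12 ± 0.15, Bmper by -3.09 ± 0.18, the secreted glycoprotein Fstl1 by -2.23 ± 0.10, and Tcf3, an E protein that Id proteins bind, by -2.16 ± 0.10. Proximal tubule markers summed to 15770 to 15870 at P45 and 2355 to 2592 at P0, stroma markers to 488 to 504 at P45 and 1628 to 1689 at P0, and nephron progenitor markers to 186 to 210.4 at P45 and 380.4 to 489 at P0. Of the nephron progenitor markers, Six2 and Eya1 stood at the lowest value at P45, and the sum at P9 was 130 to 152, below that at P45. The part of these cell types in the changes was not tested. With columns rescaled to equal totals the median of all genes became -0.49, Bmp5 and Bmp6 stood at 0.66 and 0.82 and were no longer called, and Bmp4 stood at -0.22 in place of 0.41. Bmp5 and Id1 also lost their calls by fold when 1 library was left out (0.81 and -0.86 without the second P0 library, 0.96 for Bmp5 without the first P45 library, -0.97 for Id1 without the second).

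The start of culture was examined in D3 explants grown in v1, set against the E12.5 kidneys from which explants begin. Bmp5 was the 1 called gene of 10, against 8.48% of all genes. It averaged 8.69 ± 2.69 in D3 v1 explants and 21.3 ± 0.859 in E12.5 kidneys, a change of -1.23 ± 0.28, adjusted p = 0.00113. Bmp7 (0.56 ± 0.10) and Bmp4 (-0.54 ± 0.12) had adjusted p under 0.05 with smaller changes. For the antagonists and Id genes the 95% intervals all included 0, and the widest were -0.54 to 0.44 for Grem1 and -0.89 to 0.25 for Nog. Of 49 other pathway genes 3 rose and 3 fell, with a median change of -0.13 against 0.01 over all genes. Sostdc1 (2.33 ± 0.21), the ligand Gdf10 (2.26 ± 0.28) and chordin (Chrd, 1.23 ± 0.18), a ligand-binding antagonist, rose, and Gdf6 fell (-1.73 ± 0.26). Endothelial markers summed to 408 to 454 in D3 v1 explants and 719 to 769.5 in E12.5 kidneys, and their part was not tested. Without the first D3 v1 library Bmp5 stood at -0.95 and missed the fold threshold.

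Over time in v1, from D3 to D19, Bmp6 rose, and Bmp2 and Bmp5 fell, so that 3 of 10 genes were called against 16.4% of all genes. Bmp6 averaged 38.2 at D19 and 5.87 at D3, a change of 2.52 ± 0.18, adjusted p = 5.26e-12. Bmp2 averaged 7.06 at D19 and 21.0 at D3 (-1.46 ± 0.26, adjusted p = 3.01e-05), and Bmp5 3.32 at D19 and 8.69 at D3 (-1.14 ± 0.28, adjusted p = 0.00125). All 10 genes had an adjusted p under 0.05, the other 7 with changes below 1, among them Id1 (0.78 ± 0.16), Id2 (0.69 ± 0.14), Grem1 (-0.98 ± 0.24) and Nog (0.68 ± 0.28, adjusted p = 0.0495). The share of all genes with an adjusted p under 0.05 was not counted. Of the 49 other pathway genes 5 rose and 5 fell, with a median change of 0.04 against -0.01 over all genes. Bmper fell by 2.34 on the log2 scale, Fstl3 and Nbl1, a member of the DAN family of BMP antagonists, rose (1.80 ± 0.23 and 1.70 ± 0.12), and the endothelial co-receptor Eng fell (-1.37 ± 0.17). The summed endothelial markers were 65.6 to 74.4 at D19 and 408 to 454 at D3, and proximal tubule markers summed to 519 to 543 at D19 and 42.5 to 77.5 at D3, with no test of their part. Bmp5 stood at -0.86 without the second D3 library. Day of culture and any change of the stage-based medium with stage cannot be told apart.

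Stage-based medium v1 was compared with serum-containing medium at D7. In v1 explants, against explants in 10% FBS, Grem1, Bmp4 and Id2 were lower, 3 of 10 genes against 11.3% of all. Grem1 had 1.09 and 1.00 in v1 and 10.4 and 9.93 in FBS, a change of -2.47 ± 0.24, adjusted p = 4.55e-09. Bmp4 had 19.7 and 19.4 in v1 and 44.5 and 41.1 in FBS (-1.09 ± 0.12, adjusted p = 1.83e-08), and Id2 had 105 and 104 in v1 and 216 and 220.1 in FBS (-1.05 ± 0.14, adjusted p = 1.3e-06). Of the other Id genes, Id1 had a difference of -0.38 ± 0.16 and Id3 of -0.10 ± 0.10, and neither was called. Of 49 other pathway genes 3 were higher in v1 and 5 lower, with a median change of -0.19 against -0.04 over all genes. Higher were Kcp (2.57 ± 0.12), a chordin-like protein that enhances BMP signals in kidney, Gdf10 (2.18 ± 0.28) and Chrd (2.00 ± 0.18), and follistatin (Fst), which binds activins and BMPs, was lower (-2.47 ± 0.37). Macrophage markers summed to 138 to 150 in v1 and 1826 to 1856 in FBS, and stroma markers to 2862 to 3096 in v1 and 4085 to 4537 in FBS. Their part in these differences was not tested. With columns rescaled to equal totals Bmp4 and Id2 stood at -0.96 and -0.92 and missed the fold threshold, which left Grem1, and Id2 also missed it with quantile normalization (-0.93).

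Between explants in v2 and in v1, Grem1 had the largest difference of the 10 genes. At D19 its signal was 13.5 and 12.1 in v2 explants and 0.434 and 0.776 in v1 explants, a change of 3.14 ± 0.24, adjusted p = 1.76e-09. The change was 1.70 with a pseudocount 5 times larger and 4.06 with a pseudocount 5 times smaller. Bmp5 was also higher in v2, with 19.7 and 12.48 against 3.54 and 3.10 in v1 (1.96 ± 0.28, adjusted p = 1.85e-05). These were 2 of 10 genes called, where 2.84% of all genes were. Id3 (-0.59 ± 0.10, adjusted p = 0.000348), Id2 (-0.55 ± 0.14), Bmp6 (-0.67 ± 0.18), Bmp4 (-0.40 ± 0.12) and Bmp7 (0.33 ± 0.10) had adjusted p under 0.05 and changes smaller than 1. Id1 had 69.5 in v2 and 96.9 in v1 and an adjusted p of 0.0607. Of 49 other pathway genes 1 rose and 0 fell, with a median change of -0.01 against -0.07 over all genes. The 1 that rose was Chrdl2 (1.57 ± 0.22, adjusted p = 1.94e-05), which encodes a chordin-like secreted antagonist. It was the only 1 called of the 14 other antagonists and modulators, whose median change was 0.08. The ureteric and collecting duct markers summed to 824 to 858 in v2 and 351 to 369 in v1, and the stroma markers to 2688 to 3398 in v2 and 2494 to 3170 in v1. Proximal tubule markers summed to 232 to 235 in v2 and 519 to 543 in v1. The part of the ureteric and proximal tubule markers was not tested, and the stroma ranges overlapped.

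**Figure D3:**
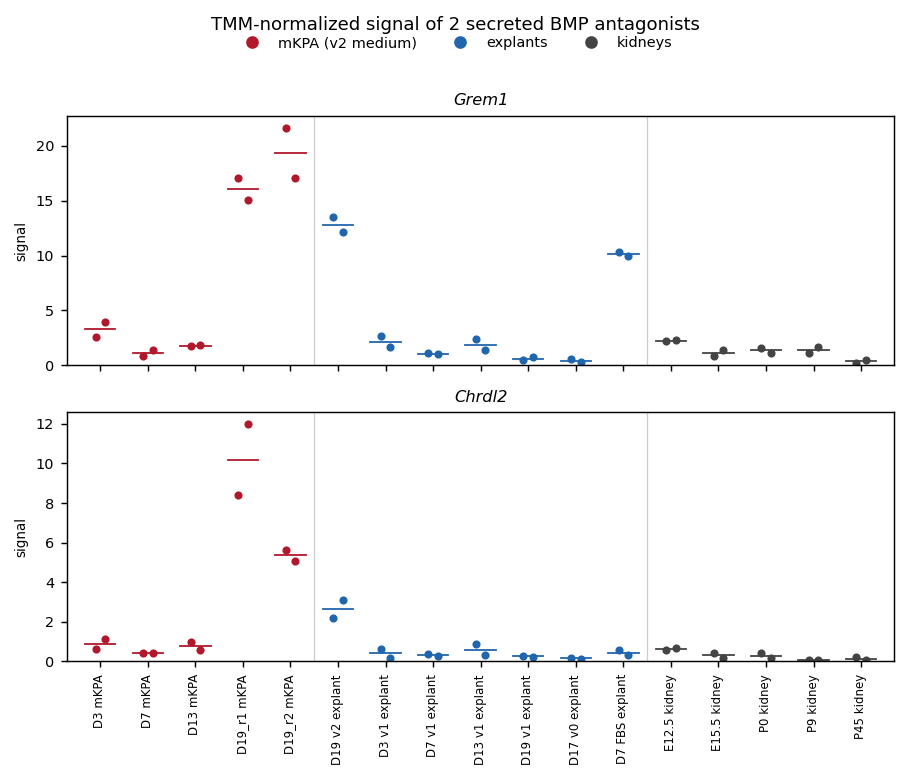
TMM-normalized signal (y axes, linear, from 0) of the antagonists Grem1 and Chrdl2 in 17 groups (x axis), with 1 point per library and a bar at the mean of each group's 2 libraries. Both are highest in the D19 groups grown in v2 (D19_r1 and D19_r2 mKPA and D19 v2 explants), and Grem1 is also high in the D7 FBS explants. Chrdl2 was chosen for the plot after its values were seen.

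In the plot of antagonists, Chrdl2 had 8.41 and 12.0 in D19_r1 mKPA, 5.65 and 5.05 in D19_r2 mKPA and 2.21 and 3.09 in D19 v2 explants, against 1.13 in the highest library elsewhere, of D3 mKPA. Within mKPA, labelled v2 at every day, no library of D3, D7 or D13 reached the lowest D19 library of either gene. As v2 is a stage-based medium, day of culture and any change of medium with stage cannot be told apart.

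The youngest mKPA were set against the kidneys of E12.5. At D3, 1 of 10 genes was called, against 12.2% of all genes: Bmp5 averaged 3.40 ± 1.78 in D3 mKPA and 21.3 ± 0.859 in E12.5 kidneys, a change of -2.41 ± 0.28, adjusted p = 5.72e-08. Bmp4 (-0.96 ± 0.12), Bmp2 (-0.86 ± 0.26), Bmp6 (-0.86 ± 0.18) and Bmp7 (0.69 ± 0.10) had adjusted p under 0.05 with changes under 1. The antagonists and Id genes had no adjusted p under 0.05, with intervals of -0.10 to 0.89 for Grem1 and -0.32 to 0.10 for Id3. Among 49 other pathway genes 4 were higher and 8 lower, with a median change of -0.21 against 0.01 over all genes. Lower were Eng (-4.09 ± 0.17), the type I receptor of endothelium Acvrl1 (-2.19 ± 0.19) and Gdf6 (-3.32 ± 0.26), and Bmp3, a ligand that opposes other BMPs, was higher (1.85 ± 0.15). All 10 endothelial markers stayed above the lowest value, but they summed to 23.3 to 25.4 in D3 mKPA and 719 to 769.5 in E12.5 kidneys. Of 8 macrophage markers 6 (Adgre1, Csf1r, C1qa, C1qb, Fcer1g and Mrc1) stood at the lowest value in D3 mKPA, and stroma markers summed to 746 to 776 in D3 mKPA and 2953 to 2981 in E12.5 kidneys. The part of these cell types in the difference of Bmp5 was not tested.

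Against D3 explants in v1, D3 mKPA had lower Bmp5, the 1 called gene of 10 where 7.68% of all genes were called. The values were 2.15 and 4.66 in mKPA and 6.78 and 10.6 in explants, a change of -1.18 ± 0.28, adjusted p = 0.00227. Bmp6 had 3.05 and 2.26 in mKPA and 6.58 and 5.16 in explants (-0.92 ± 0.18, under the fold threshold), and Bmp2 9.54 and 12.2 in mKPA and 20.5 and 21.5 in explants (-0.90 ± 0.26). The other pathway genes were higher in 2 and lower in 9 of 49, with a median change of 0.02 against 0.00 over all genes. The largest changes were those of Eng (-3.53 ± 0.17), Hey1 (-2.19 ± 0.15), Gdf10 (-1.93 ± 0.28) and Sostdc1 (-1.91 ± 0.21). Endothelial markers summed to 23.3 to 25.4 in D3 mKPA and 408 to 454 in D3 v1 explants, and stroma markers to 746 to 776 in D3 mKPA and 1986 to 2003 in D3 v1 explants, and their part was not tested. Source and medium differ together here and cannot be told apart. Bmp5 lost its call without the first D3 mKPA library (-0.75, adjusted p = 0.124) and without the second D3 v1 library (-0.89, adjusted p = 0.0700). With quantile normalization it stood at -0.97, under the fold threshold.

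Within mKPA, Bmp6 and Grem1 rose between D3 and D19, 2 of 10 genes against 17.4% of all. Over the 4 libraries of D19_r1 and D19_r2, Bmp6 averaged 31.6 ± 1.94 (SD, n = 4), against 2.66 ± 0.554 at D3 (n = 2), a change of 3.18 ± 0.16, adjusted p = 1.17e-15. Here and below, the standard error and p of a D19 mKPA change leave out the difference between D19_r1 and D19_r2. Grem1 averaged 17.7 ± 2.79 at D19 and 3.27 ± 0.945 at D3 (2.15 ± 0.21, adjusted p = 9.5e-10). Its means at D7 and D13, 1.07 and 1.77, were below that of D3. Just under the fold threshold, Nog had a change of 0.96 ± 0.24 and Bmp4 of 0.90 ± 0.10, with adjusted p of 0.00136 and 1.17e-08. The Id genes had changes of 0.15 ± 0.14 (Id1), 0.12 ± 0.12 (Id2) and -0.25 ± 0.09 (Id3). Of 49 other pathway genes 10 rose and 4 fell, with a median change of 0.21 against 0.01 over all genes, and among the 14 other antagonists and modulators 5 rose and 1 fell. Gdf10 rose by 3.39 ± 0.24, Sostdc1 by 2.73 ± 0.18 and Acvrl1 by 2.53 ± 0.17, and Bmper was lower (-3.37 ± 0.16). Stroma markers summed to 3277 to 3836 at D19 and 746 to 776 at D3, and proximal tubule markers to 410.1 to 431 at D19 and 15.2 to 18.3 at D3. Markers of the thick ascending limb summed to 103 to 176 at D19 and 2.10 to 2.32 at D3, and nephron progenitor markers to 414 to 629 at D19 and 811 to 1113 at D3. The part of these cell types was not tested, and day of culture cannot be told apart from any change of the stage-based medium with stage. Without the second D3 library 4 genes were called.

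At D19 in the same medium, mKPA and explants differed in Bmp5, 1 of 10 genes against 5.44% of all. Bmp5 averaged 3.68 ± 1.11 in D19 mKPA (SD, n = 4) and 16.1 ± 5.09 in D19 v2 explants (n = 2). The change was -1.88 ± 0.24, adjusted p = 1.26e-06, and the 4 mKPA libraries all lay below both explants. Its standard error and p leave out the difference between D19_r1 (4.43 and 4.78) and D19_r2 (3.02 and 2.47), which did not overlap. Grem1 was high in both, and its difference of 0.43 ± 0.21 (95% interval 0.00 to 0.86, adjusted p = 0.134) was not called. Id3 was higher in mKPA without reaching the fold threshold, at 216 against 139 in explants (0.63 ± 0.09, adjusted p = 6.66e-06), and the libraries did not overlap. Bmp7 had a difference of 0.04 ± 0.09, with an interval of -0.14 to 0.22. Of the 49 other pathway genes 1 was higher, Chrdl2 (1.22 ± 0.19), and 2 were lower, Bmper (-1.73 ± 0.16) and Eng (-1.12 ± 0.15), with a median change of 0.04 against 0.05 over all genes. Macrophage markers summed to 7.62 to 10.5 in D19 mKPA, with C1qa and C1qb at the lowest value, and 402 to 529.8 in D19 v2 explants, and their part was not tested.

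Both D19 cultures in v2 were also set against the kidney at birth. In D19 mKPA, against P0 kidneys, Grem1 and Bmp5 were higher and Bmp2 was lower, 3 of 10 genes against 12.4% of all. Grem1 averaged 17.7 in D19 mKPA and 1.35 in P0 kidneys (3.01 ± 0.21, adjusted p = 2.58e-12), Bmp5 3.68 in D19 mKPA and 0.744 in P0 kidneys (1.44 ± 0.24, adjusted p = 1.69e-05), and Bmp2 6.29 in D19 mKPA and 13.9 in P0 kidneys (-1.07 ± 0.22, adjusted p = 0.000284). In D19 v2 explants, against P0 kidneys, Bmp5 (3.31 ± 0.28, adjusted p = 1.25e-10) and Grem1 (2.58 ± 0.24, adjusted p = 9.86e-10) were higher, 2 of 10 genes against 16.2% of all. These comparisons share the P0 libraries. Nog had 4.31 in D19 mKPA and 4.07 in P0 kidneys, with an interval of -0.43 to 0.55. Id3 had intervals of -0.12 to 0.25 in D19 mKPA and -0.78 to -0.35 in D19 v2 explants, both against P0 kidneys.

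Of the 49 other pathway genes, 6 were higher and 3 lower in D19 mKPA, and 8 higher and 6 lower in D19 v2 explants, each against P0 kidneys. Their median changes were 0.13 in mKPA and 0.24 in explants, against -0.04 and -0.08 over all genes. Gdf10 changed by 3.53 ± 0.24 in mKPA and 3.24 ± 0.28 in explants, Eng by -4.07 ± 0.15 in mKPA and -2.94 ± 0.17 in explants, and Sostdc1 by -2.79 ± 0.18 in mKPA and -2.68 ± 0.21 in explants. Chrdl2 changed by 2.74 ± 0.19 in mKPA and 1.52 ± 0.22 in explants, and Fstl3 by -1.53 ± 0.23 in explants. The endothelial markers summed to 52.7 to 57.5 in D19 mKPA, 68.2 to 71.3 in D19 v2 explants and 826 to 890.4 in P0 kidneys. Stroma markers summed to 3277 to 3836 in D19 mKPA, 2688 to 3398 in D19 v2 explants and 1628 to 1689 in P0 kidneys, and proximal tubule markers to 410.1 to 431 in D19 mKPA, 232 to 235 in D19 v2 explants and 2355 to 2592 in P0 kidneys, with no test of the part of these cell types. Bmp2 in D19 mKPA missed the fold threshold without the second P0 library (-0.91), with D19_r2 as the only D19 group (-0.75), with a pseudocount 5 times larger (-0.77) and with quantile normalization (-0.97). Bmp5 in D19 mKPA missed it with the larger pseudocount (0.60).

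The last comparison tested whether the change from D3 to D19 differed between mKPA in v2 and explants in v1. It did for Grem1 and Bmp5, 2 of 10 genes against 9.5% of all. The D19 over D3 estimate of Grem1 was 2.15 ± 0.21 in mKPA and -0.98 ± 0.24 in explants, a difference of 3.13 ± 0.32, adjusted p = 4.3e-08. That of Bmp5 was 0.12 ± 0.24 in mKPA and -1.14 ± 0.28 in explants, a difference of 1.26 ± 0.37, adjusted p = 0.0135. Bmp6 rose in both, by 3.18 ± 0.16 in mKPA and 2.52 ± 0.18 in explants, and the difference of 0.66 ± 0.24 (adjusted p = 0.04999) was under the fold threshold. Id1 and Id2 had differences of -0.63 ± 0.21 and -0.58 ± 0.19, each with an adjusted p under 0.05 and a size under 1. Of 49 other pathway genes 10 had a higher difference and 3 a lower one, with a median of 0.03 against -0.00 over all genes. The largest were those of Eng (2.42 ± 0.22), Chrdl2 (2.36 ± 0.29), Gdf10 (2.14 ± 0.37) and Hey1 (2.02 ± 0.20). The difference of Bmp5 lost its call when 1 of 3 libraries was left out (adjusted p = 0.153 without the first of D3 mKPA, 0.108 without the second of D3 v1 and 0.0565 without the second of D19 v1) and with D19_r2 alone (0.0912). Source and medium cannot be told apart here either.

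**Figure D4:**
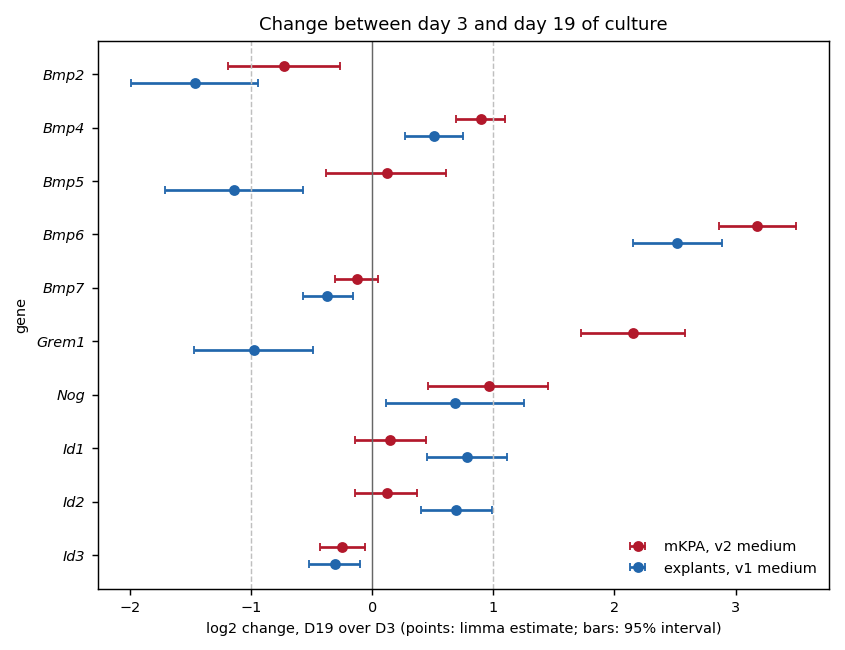
Change between D3 and D19 (x axis, log2 of D19 over D3; points are limma estimates and bars 95% intervals) of the 10 genes (y axis) in mKPA in v2 (upper, red) and in explants in v1 (lower, blue), with dashed lines at -1 and 1. Bmp6 lies far to the right in both, and Grem1 lies at 2.15 in mKPA and -0.98 in explants.

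The plot of D19 over D3 shows overlapping intervals in mKPA and explants for Bmp2, Bmp4, Bmp6, Bmp7, Nog and Id3. Those of Grem1, Bmp5, Id1 and Id2 do not overlap.

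To place the genes among the rest of the transcriptome, the 3 genes with the most similar group means were listed for each, by Pearson r of log2 values over the 17 groups and among 13618 genes. For the ligands, Bmp2 was followed most closely by Pcdhgb6 at 0.870, Mycl at 0.865 and Rian at 0.864, Bmp4 by 1810058I24Rik at 0.876, Dph1 at 0.803 and Tmem108 at 0.777, and Bmp5 by Hoxa13 at 0.830, Hgf at 0.816 and Nfib at 0.806. The genes closest to Bmp6 were Ndrg1 at 0.941, Gc at 0.941 and Abcc2 at 0.940, and those closest to Bmp7 were Osgep at 0.778, Hs3st6 at 0.770 and Chadl at 0.749. Pcdhgb6 shares exons with other genes of its cluster, so that its reads are uncertain. Gc encodes the vitamin D binding protein and Abcc2 an apical efflux transporter of the proximal tubule. For the antagonists, Grem1 was matched by Tacr1 at 0.863, Chrdl2 at 0.853 and Dio2 at 0.832. Nog was matched by Rcn1 at 0.856, Gnai2 at 0.855 and Arl4c at 0.849. Genes that stayed low in every group were left out of the search. Chrdl2 averaged 10.2 in D19_r1 mKPA, 5.35 in D19_r2 mKPA, 2.65 in D19 v2 explants and 0.891 or less elsewhere. Grem1 was high in the same 3 groups, so the search itself favoured this match. It cannot show a pattern shared by antagonists. For the Id genes the closest were Tgfa at 0.850, Ets2 at 0.848 and Fhdc1 at 0.834 for Id1, Ube2b at 0.813, Ufm1 at 0.811 and Tax1bp1 at 0.802 for Id2 and Dennd2a at 0.943, Cacna1h at 0.934 and Shc2 at 0.933 for Id3. The coefficients describe 17 group means and carry no p.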

How the data were processed

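Bulk RNA of 34 mouse libraries (17 groups of 2, assigned from the labels' titles and characteristics) was analysed from 1 deposited table of 23331 genes. Its values are a TMM-normalized signal made by the authors, per the table's name. RNA was extracted with Zymo kits and sequenced by NovoGene, per the labels' protocols, and the submitters' processing notes name STAR 2.7.8a, Partek, mm39 and mm10 without roles. Counter, strand setting and gene filter were not given in the sources used here, so reads of a gene and an overlapping antisense gene cannot be told apart. What the lowest value of a library stands for is not stated. Low values were whole multiples of it (tolerance 0.1) for 88.9% to 94.5% of genes, so reads were not recovered and no count test was run. Column total over lowest value ran from 7772347 to 28459391 (median 19099355), which bounds precision only roughly. The second D19 v2 explant library was at the bottom of this range and the first at the top.

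limma 3.58.1 in R 4.3.3, with trend and robust moderation, was fitted to log2(signal + 0.962) (a pseudocount of 1 ppm of the median column total) in 1 fit of all groups. It was applied to the 19264 genes with at least 0.962 in 2 libraries. D19 mKPA was the mean of D19_r1 and D19_r2, each fitted as its own group, so standard errors and p leave out the difference between them. The script was tested on simulated data. Alternatives changed the pseudocount, filter, scaling, moderation, fold threshold, D19 set and replicate block and left out each library. All 10 genes, lists of BMP pathway and cell type marker genes, and comparisons were chosen with earlier results of these data known. Other pathway genes were named by rule, up to 4 called genes per comparison with the largest change whose mean reached 10 times the pseudocount in whichever group was higher. Chrdl2 in D19 v2 against D19 v1 explants fell outside it and was named after its values were seen. Bmp8b and Hjv did not pass the filter, and Bmp10 and Gdf2 were not analysed here. Of the other antagonists, 1 is not reported here. Promoter windows were taken from RefSeq (GRCm38.p6).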

Additional observations from a re-analysis of the deposited data

Results flagged for a closer look

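The D19 over D3 change of Grem1 differed between mKPA and v1 explants by 3.13 on the log2 scale (adjusted p = 4.3e-08, limma), and that of Bmp5 by 1.26 (adjusted p = 0.0135). Grem1 rose in mKPA, at 17.7 on average at D19 and 3.27 at D3. Bmp5 fell in v1 explants, at 3.32 at D19 and 8.69 at D3. Among the 4 D19 mKPA libraries, the second D19_r2 library had an Id1 signal of 94.9, apart from 83.0, 83.1 and 81.9 in the others. The gap to the nearest library was set against the range of the group by Dixon's criterion, under which about 1 in 20 groups is set apart by chance.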

How the results depend on the processing

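Among results for single genes, 1008 kept their direction and side of the threshold, 73 passed it only under the alternative, 31 no longer passed it and 2 reversed. The genes were those with an adjusted p under 0.05 in the main fit, all of which pass with no fold threshold. That setting could therefore only add to the 1008 or the 73, and its verdicts were fixed in advance. The reversed values were Bmp4 at -0.22 (adjusted p 0.119) and Id2 at -0.00 (adjusted p 0.990), in P45 against P0 kidneys with columns rescaled to equal totals. The median of all genes was then -0.49, and 1223 genes were higher and 5269 lower, in place of 2635 and 2662. Equal totals gave 1387 higher and 896 lower in D7 v1 against D7 FBS explants, in place of 1101 and 1082. They moved the median to -0.11 in D19 v2 explants against P0 kidneys. Quantile normalization moved it to -0.11 in P0 against E12.5 kidneys, with 2020 higher and 1755 lower in place of 2437 and 1311.

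Of the 10 genes, a pseudocount 5 times larger left 3 called in P45 against P0 kidneys, 0 in D3 v1 explants against E12.5 kidneys and in D3 mKPA against D3 v1 explants, 1 in D19 mKPA against P0 kidneys and 1 for the difference of the D19 over D3 change. It lowered the count over all genes by more than 1.5 times in all 13 comparisons, to 2230 in place of 3748 in P0 against E12.5 kidneys, 3364 in place of 5297 in P45 against P0 kidneys, 759 in place of 1634 in D3 v1 explants against E12.5 kidneys, 1896 in place of 3163 in D19 against D3 v1 explants, 1116 in place of 2183 in D7 v1 against D7 FBS explants, 224 in place of 548 in D19 v2 against D19 v1 explants and 1208 in place of 2351 in D3 mKPA against E12.5 kidneys. It was 668 in place of 1479 in D3 mKPA against D3 v1 explants, 2071 in place of 3343 in D19 against D3 mKPA, 383 in place of 1048 in D19 mKPA against D19 v2 explants, 1307 in place of 2396 in D19 mKPA against P0 kidneys, 1729 in place of 3119 in D19 v2 explants against P0 kidneys and 909 in place of 1831 for the difference of the change. A pseudocount 5 times smaller gave 1658 in place of 1048 in D19 mKPA against D19 v2 explants. It gave 2 of the 10 genes in D3 mKPA against E12.5 kidneys, where 3017 of all genes were called. Against D3 v1 explants it also gave 2, where 2007 of all genes were called. Equal totals left 1 in D7 v1 against D7 FBS explants (2283 of all genes) and gave 2 in D3 mKPA against E12.5 kidneys (2347 of all genes). Quantile normalization left 0 in D3 mKPA against D3 v1 explants (1445 of all genes). With no fold threshold the counts were 5 in P0 against E12.5 kidneys, 10 in P45 against P0 kidneys, 3 in D3 v1 explants against E12.5 kidneys, 10 in D19 against D3 v1 explants, 7 in D19 v2 against D19 v1 explants, 5 in D3 mKPA against E12.5 kidneys and against D3 v1 explants, 6 in D19 against D3 mKPA, 5 in D19 mKPA against D19 v2 explants, 8 in D19 mKPA against P0 kidneys, 4 in D19 v2 explants against P0 kidneys and 5 for the difference of the change. The share of all genes called with no fold threshold was not counted, so these counts cannot be set against it.

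Leaving out 1 library at a time gave 0 to 1 called in D3 v1 explants against E12.5 kidneys, 1 to 3 in D3 mKPA against E12.5 kidneys (2 without its first and 3 without its second D3 mKPA library), 1 to 2 in D3 mKPA against D3 v1 explants (2 without the second D3 mKPA library), 2 to 4 in D19 against D3 mKPA and 1 to 2 for the difference of the change. It gave 4 to 6 in P45 against P0 kidneys. The share of all genes called was not counted in the refits without 1 library, so these counts cannot be set against it. A count can hold while its genes change, as Bmp5 lost its call in some refits of D3 mKPA against D3 v1 explants. With the replicate block the count of called members equalled the main one in all 13 comparisons, for example 6 in P45 against P0 kidneys. Deviations of same-numbered samples correlated at -0.205 to 0.176 over 21 pairs of groups, 2 of them above 0.1, so the numbers were not taken to pair the samples. The causes of these changes were not tested. With 2 libraries a group, a change near the fold threshold rests on few values. Changes with a group mean below the pseudocount moved far with it. Nog in P45 against P0 kidneys stood at -0.77 with the larger and -3.13 with the smaller. Grem1 in D19 v2 against D19 v1 explants stood at 1.70 with the larger and 4.06 with the smaller. Bmp5 in P0 against E12.5 kidneys stood at -2.24 with the larger and -4.61 with the smaller. The calls of Grem1 and Bmp5 held under both, but their sizes are not well fixed.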
